A study of Mus musculus with 7 samples.

Results

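Chemokine ligand genes encode small secreted proteins that guide leukocytes by binding G protein-coupled receptors on their surface. They are classed by the spacing of conserved cysteines, with CC ligands acting on CCR receptors and CXC ligands on CXCR receptors. In allergic lung, eotaxins draw eosinophils through CCR3, ligands of CCR4 draw T helper cells of type 2, and ligands of CXCR3 draw activated T and NK cells. Eosinophils both respond to chemokines and make them.

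The genes described here are 38 chemokine ligand genes, out of 18220 genes measured in all. They are those listed on the array as Ccl or Cxcl with a number, or as Xcl1, Cx3cl1, Pf4 or Ppbp. They were measured by 42 probe sets, and where a gene had several, the probe set of highest mean level was read. Symbols are current RefSeq ones, and 5 differ from the array's: Pf4, Ccl26 and Ccl27a had older symbols there, and those of Ccl21a and Ccl21b were exchanged. Ccl21a, Ccl21b and Ccl21c, near-identical genes, had identical values in every library and are in effect 1 measurement, so the 38 genes hold 36 distinct ones.

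The eosinophils were sorted by flow cytometry from BALB/c lungs, BALB/c being an inbred mouse strain used in models of airway allergy. Lungs had been challenged with OVA (3 libraries), where OVA stands for the egg white allergen ovalbumin, or with saline (4 libraries). Sensitization, age, time after challenge and pooling of animals are not given in the sources used here, and the p-values therefore cover no more than the spread among the 7 libraries, which may be technical. Levels are log2 values after robust multi-array averaging (RMA), and differences are OVA minus saline with the standard error (SE) of the limma fit. A gene was called when its Benjamini-Hochberg adjusted p, taken over the full set of 18220 genes, was under 0.05.

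Libraries of a group correlated across genes at 0.9904 to 0.9936 in OVA and 0.9738 to 0.9898 in saline. Of 6 eosinophil markers, none lay under the median of the negative control probe sets in all libraries, and 3 were called higher in OVA. That negative control median was 6.04 to 6.17 in OVA libraries and 5.86 to 5.95 in saline libraries. Among markers of other cells, 9 of 16 alveolar macrophage genes, 3 of 8 neutrophil genes, 2 of 14 lung epithelial genes, 1 of 10 monocyte genes and 1 of 10 dendritic cell genes were called higher. No gene of the T, B, NK, mast cell, endothelial, fibroblast, platelet or erythroid lists was called in either direction, though 3 of 4 erythroid genes were lower in every OVA library than in every saline library. In sorted bulk RNA, a change in the number of cells of a type and a change in RNA per cell cannot be told apart.

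Of the 38 chemokine genes, 4 were called higher in OVA and 0 lower by limma. Over all genes 6.45% were called, 5.28% higher and 1.17% lower, and 10 of the 38 had an unadjusted p under 0.05, as did 20.8% of all genes. Over all genes the split was 962 higher and 213 lower, and it was 927 and 513 after a further quantile normalization and 1109 and 476 after cyclic loess, with the same 4 chemokine genes called in each. The 4 were Cxcl15, Cxcl10, Ccl24 and Ccl20. The median difference over the 38 genes was -0.07, the same as the median over all genes (-0.07), and the mean was 0.11 against 0.01 over all genes. Every OVA library lay above every saline library for 6 of the 38 (11% of all genes) and below for 2 (8.63% of all genes). The largest differences thus belonged to few members of the family, and 34 of 38 did not pass the test.

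**Figure D1:**
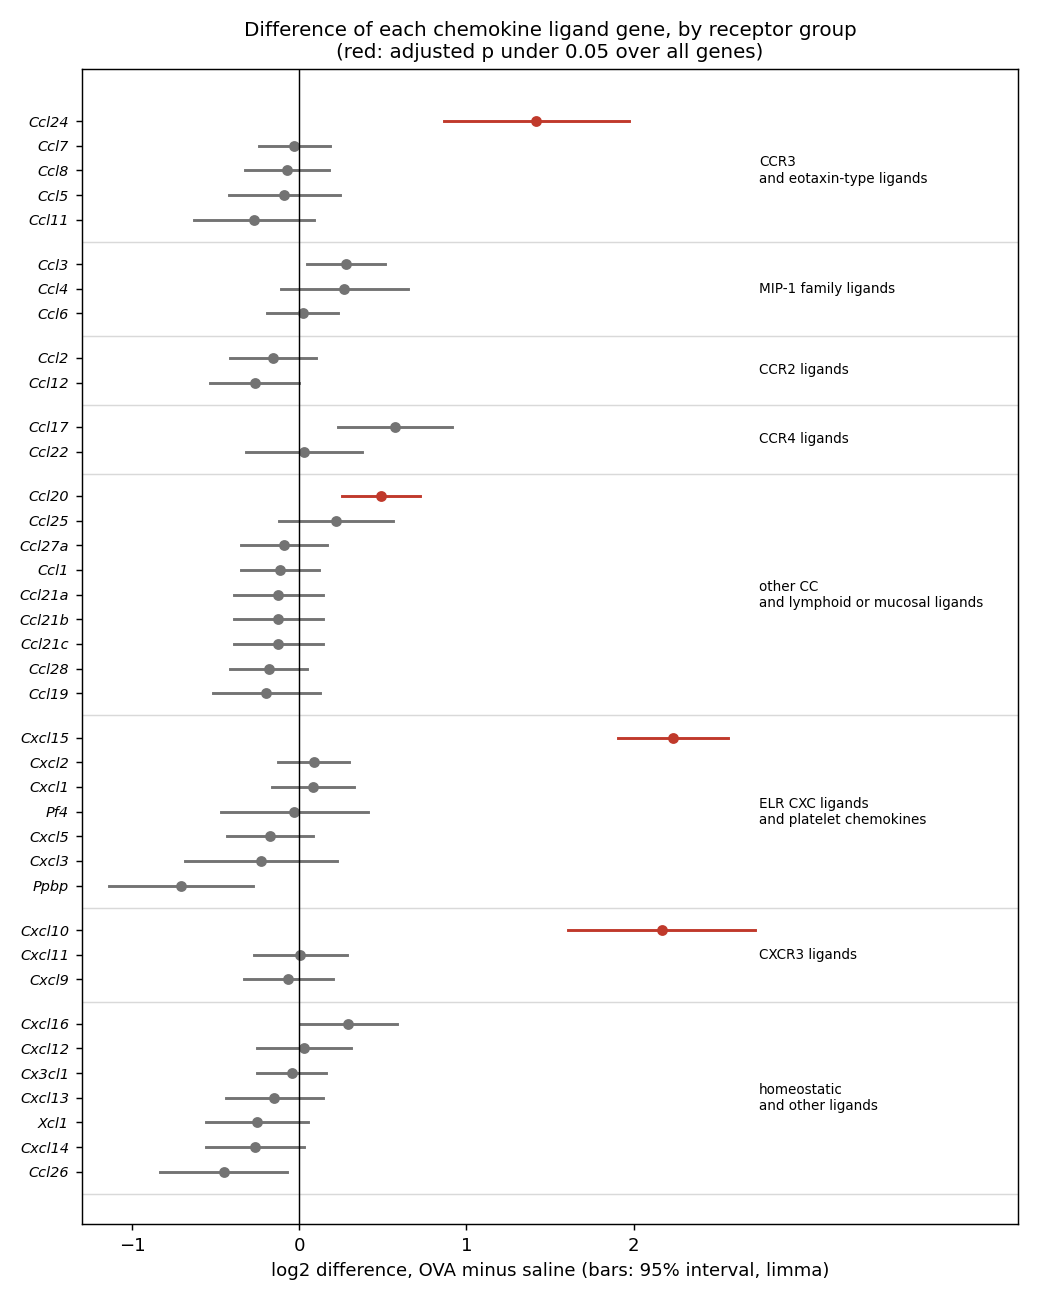
Log2 difference of each of the 38 chemokine ligand genes, OVA minus saline, with its 95% interval from limma, grouped by receptor or family. Red points are the 4 genes called at an adjusted p under 0.05 and grey points are the other 34. Differences ran from -0.71 for Ppbp to 2.24 for Cxcl15.

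The stretches before the gene starts of called members, and of Cxcl9, which lies beside Cxcl10 on the chromosome, are shown because they can be searched for the binding letters of factors that commonly drive chemokine genes. The sequences are from RefSeq (build GRCm38.p6), which matched 27 of the 38 genes here, Ccl24 not among them. Each is the 250 bases before the start, written 5′ to 3′ on the gene's strand. Capitals mark matches, on either strand, to an interferon-stimulated response element (GAAA, any 2 bases, GAAA) or to a kappaB motif (GGG, any 3 bases, TTCC). The regions are chr5:92348890-92349139 on the minus strand for Cxcl10, chr5:92328080-92328329 on the minus strand for Cxcl9, chr1:83116516-83116765 on the plus strand for Ccl20 and chr5:90794284-90794533 on the plus strand for Cxcl15.
Cxcl10: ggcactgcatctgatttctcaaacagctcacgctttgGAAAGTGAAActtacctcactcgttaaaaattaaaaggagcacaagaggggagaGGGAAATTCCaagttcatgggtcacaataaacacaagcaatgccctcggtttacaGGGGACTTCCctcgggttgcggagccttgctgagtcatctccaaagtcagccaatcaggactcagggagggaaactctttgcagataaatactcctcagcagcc
Cxcl9: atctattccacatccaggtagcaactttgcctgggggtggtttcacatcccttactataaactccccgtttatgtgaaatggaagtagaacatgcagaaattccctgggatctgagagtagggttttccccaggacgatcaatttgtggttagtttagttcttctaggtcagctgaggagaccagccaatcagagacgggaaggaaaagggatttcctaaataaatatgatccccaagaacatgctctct
Ccl20: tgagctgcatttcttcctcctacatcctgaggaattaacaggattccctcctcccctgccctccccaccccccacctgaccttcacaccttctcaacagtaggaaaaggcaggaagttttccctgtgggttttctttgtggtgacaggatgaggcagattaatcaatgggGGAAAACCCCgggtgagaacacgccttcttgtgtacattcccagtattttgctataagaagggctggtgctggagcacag
Cxcl15: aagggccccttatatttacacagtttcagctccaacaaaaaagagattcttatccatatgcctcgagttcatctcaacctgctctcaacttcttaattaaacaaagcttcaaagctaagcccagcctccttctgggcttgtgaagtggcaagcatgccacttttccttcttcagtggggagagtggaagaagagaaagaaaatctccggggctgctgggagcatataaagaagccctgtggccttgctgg

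Before the Cxcl10 start, the interferon-stimulated letters stood 213 to 204 bases upstream. The kappaB letters stood 159 to 150 and 104 to 95 bases upstream. The Ccl20 stretch held 1 kappaB match, 80 to 71 bases before the start. The Cxcl9 and Cxcl15 stretches held neither of these forms. A looser kappaB form (GGG, any 5 bases, CC) had 2 overlapping matches in the Cxcl9 stretch, 130 to 121 and 129 to 120 bases before the start. That form stood before 48.1% of the 27 chemokine genes with a sequence and before 48.7% of all genes. Among all 32851 RefSeq promoter windows of this length, 2.98% held the interferon-stimulated letters and 4.65% the kappaB letters. By gene, 6 of the 27 chemokine genes held the kappaB letters (Ccl1, Ccl20, Cxcl1, Cxcl10, Cxcl2 and Cxcl3), against 5.31% of all 27025 genes. The interferon-stimulated letters stood before 3 of the 27 (Ccl19, Cxcl10 and Cxcl14), against 3.46% of all genes. Of the 6 genes with the kappaB letters, Ccl20 and Cxcl10 were called. With or without the letters, 4 of the 38 chemokine genes and 6.45% of all genes were called. The share called among all genes holding the letters was not counted. Cxcl15, also called, did not hold these letters, and Ccl24 had no sequence. Whether the letters bear on the calls was not tested. The spacing TTC, any 4 bases, GAA, bound by STAT6 downstream of IL-4 and IL-13, stood before 1 of the 27 chemokine genes, Ccl17, and before 6.76% of all genes. TTCNNNGAA, used by other STAT factors, stood before Ccl17 and Cxcl14, and before 8.13% of all genes.

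Of the ligands of CXCR3, a receptor of activated T and NK cells, Cxcl10 rose and its neighbours Cxcl9 and Cxcl11 were not called. Cxcl10 stood at 9.34, 9.22 and 9.72 in the OVA libraries, against 7.33, 6.61, 7.28 and 7.82 in the saline libraries. Every OVA library lay above every saline library, with saline 2 the lowest of all. The difference was 2.17 (SE 0.25, limma adjusted p = 0.0013), a 4.49-fold higher level. It was called under each of the 16 alternative settings tried, with differences between 1.88 and 2.46.

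Cxcl9 stood at 6.30, 6.07 and 6.14 in OVA, against 6.41, 6.32, 6.10 and 6.11 in saline. Cxcl11 stood at 6.00, 5.99 and 6.04 in OVA, against 6.20, 6.15, 5.81 and 5.86 in saline. In both genes the groups overlapped and the values lay near the negative control median. Their differences had 95% intervals of -0.33 to 0.20 and -0.27 to 0.28, and that of Cxcl10 was 1.61 to 2.73. In the C57BL/6J reference annotation Cxcl11 is a transcribed pseudogene, whereas the mice here were BALB/c.

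Cxcl10 is commonly used as a marker of the interferon response. Of 20 measured genes of an interferon response list, 0 were called higher and 2 lower by limma, with 5 at an unadjusted p under 0.05. The interferon regulatory factor Irf7 stood at 7.68, 7.67 and 7.91 in OVA, against 8.48, 8.29, 9.0 and 8.82 in saline, and fell by 0.89 (SE 0.17, limma adjusted p = 0.0151). The antiviral gene Oasl1 fell by 0.66 (SE 0.12, limma adjusted p = 0.0142). Of 18 targets and feedback genes of NF-kappaB, a factor that drives many chemokine genes, 8 were called higher and 0 lower. Among them the inhibitors Nfkbia and Tnfaip3 rose by 1.11 (SE 0.15) and 1.04 (SE 0.11), and the adhesion molecule Icam1 by 1.36 (SE 0.24). The median difference was 0.40 over the NF-kappaB list and -0.03 over the interferon list, against -0.07 over all genes. Of the interferon list, 6 genes lay under the negative control median in every library, against 0 of the NF-kappaB list. Such dim genes can show little change. The part of either pathway in the Cxcl10 difference was not tested.

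Among the 5 ligands of CCR3 and their relatives, Ccl24 was the member called. Ccl24 encodes eotaxin-2, a strong attractant of eosinophils. It stood at 8.45, 7.25 and 7.78 in OVA, against 6.48, 6.13, 6.41 and 6.62 in saline. The lowest OVA library lay above the highest saline library, and the OVA libraries spread over more than 1 log2 unit. The difference was 1.42 (SE 0.25, limma adjusted p = 0.0097), and it was not called without OVA replicate 3 (limma adjusted p = 0.0534, the highest of the alternatives, the lowest being 0.00522).

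Ccl11 encodes eotaxin-1, the other mouse eotaxin. It stood at 6.82, 6.54 and 6.50 in OVA, against 7.01, 7.22, 6.70 and 6.64 in saline, so the groups overlapped and the difference was -0.27 (SE 0.16). Ccl26, the counterpart of the human eotaxin-3 gene and the neighbour of Ccl24 on chromosome 5, averaged 6.03 ± 0.21 in OVA (SD, n = 3) and 6.49 ± 0.29 in saline (SD, n = 4), and its difference of -0.45 was not called. Without saline 3 and 4 together both were called lower. The eotaxins were thus not seen to move as a group. Ccl11, Ccl26 and Ccl24 passed the 95th percentile of the negative control probe sets in no library. Ccl26 passed the negative control median in 5 of the 7 libraries. Such low levels limit what these differences can show.

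Ccl5, Ccl7 and Ccl8, grouped here with the ligands of CCR3, were not called. Ccl5 (RANTES), a ligand of CCR1 and CCR3, stood at 8.17, 8.12 and 8.71 in OVA, against 8.37, 8.46, 8.50 and 8.36 in saline. OVA 3 was the highest of the 7 and the other OVA libraries the lowest. Ccl7 (MCP-3) stood at 6.54, 6.47 and 6.42 in OVA, against 6.47, 6.51, 6.46 and 6.58 in saline. Ccl8, a ligand of CCR8 in mice, stood at 4.80, 4.59 and 4.86 in OVA, against 4.72, 4.77, 4.84 and 4.96 in saline, under the negative control median in every library. Ccr3 itself, the receptor that defines the response of eosinophils to eotaxins, stood at 11.75, 11.97 and 11.80 in OVA, against 11.90, 11.96, 12.05 and 11.99 in saline, and was not called.

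Ccl24 was highest in OVA 1 and lowest, among the OVA libraries, in OVA 2, and some but not all genes of type 2 activation had this order. Arg1, an arginase, stood at 8.81, 7.37 and 8.46 in OVA, against 6.18, 6.55, 6.87 and 6.57 in saline. Mrc1, the macrophage mannose receptor, stood at 8.56, 7.16 and 7.95 in OVA, against 5.44, 5.47, 6.75 and 5.64 in saline. Chil3, a chitinase-like protein made by eosinophils and alveolar macrophages, stood at 12.90, 11.98 and 12.52 in OVA, against 5.76, 6.16, 6.64 and 6.49 in saline. These genes had the order of Ccl24. Retnla, a secreted product of type 2 activated cells, stood at 12.39, 12.44 and 12.31 in OVA, against 7.45, 7.24, 6.70 and 7.17 in saline, and did not have it. The order was taken from Ccl24 itself. It held for 5 of the 8 STAT6 target genes called higher, Ccl24 among them by construction. Of the 9 alveolar macrophage genes called higher, 6 had it. In Cish (10.05, 9.90 and 9.91 in OVA) and Itgax (10.59, 10.48 and 10.51) the order rested on near ties. Chil3 and Mrc1 were counted in both lists. Of all genes called higher 8.52% had this order, and of all genes 12.9%. The genes named for it were looked up after the values of Ccl24 were seen, so these counts are no test of a shared order. Mrc1 and Chil3 belong to the alveolar macrophage list, whose 16 genes averaged 8.36 to 8.73 in OVA libraries and 6.95 to 7.23 in saline libraries, with 9 called higher, 1 lower and 2 under the negative control median in every library. The part of such cells in the Ccl24 difference was not tested.

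**Figure D2:**
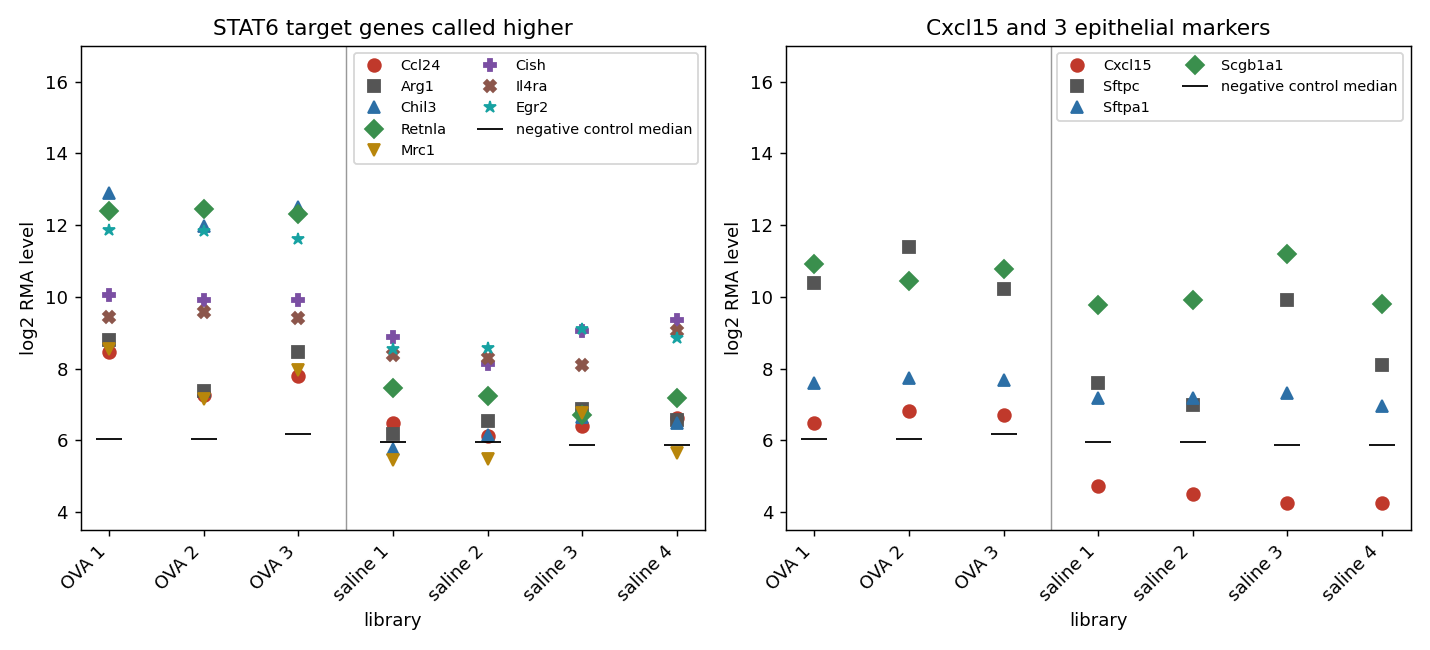
Log2 RMA level in each library of the 8 STAT6 target genes called higher, Ccl24 among them (left), and of Cxcl15 beside the epithelial markers Sftpc, Sftpa1 and Scgb1a1 (right), with OVA libraries left of the grey line and saline libraries right of it. Black dashes are the negative control median of each library. The order OVA 1, OVA 3, OVA 2, taken from Ccl24, held for 5 of the 8 genes, Ccl24 included. Cxcl15 lay under the negative control median in every saline library, and Sftpc was highest among saline libraries in saline 3 (9.91). Of the 14 epithelial genes listed, Sftpc and Sftpa1 were the 2 called, and the median difference was 0.12.

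Ligands of CCR4, a receptor of T helper cells of type 2, were not called. Ccl17 (TARC) stood at 7.58, 7.57 and 7.41 in OVA, against 6.92, 6.66, 6.88 and 7.32 in saline. The groups did not overlap, but saline 4 came within 0.1 log2 of the lowest OVA library. The difference was 0.58 (SE 0.15, limma adjusted p = 0.0575), and it was called without saline replicate 4 (0.70, limma adjusted p = 0.00933), with array weights (0.00833), with dim genes left out (0.0467), without saline 3 and 4 together (0.00746) and with the replicate block (0.0175). Ccl22 (MDC), the partner of Ccl17 on CCR4 and near it on chromosome 8, averaged 6.39 ± 0.30 in OVA (SD, n = 3) and 6.37 ± 0.17 in saline (SD, n = 4). Of 14 STAT6 target genes, a list that holds Ccl11, Ccl17, Ccl22 and Ccl24, 8 were called higher and 0 lower, Ccl24 being the chemokine among them.

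Cxcl15, known as lungkine, is a neutrophil attractant described in mice as a product of airway epithelium. It stood at 6.47, 6.81 and 6.71 in OVA, against 4.72, 4.49, 4.25 and 4.25 in saline. The groups were far apart, and each group spread over less than 0.5 log2. The difference was 2.24 (SE 0.15, limma adjusted p = 4e-05). All saline values lay under the negative control median of their library and all OVA values above it, so the size of the difference is uncertain, and the gene was not tested when dim genes were left out.

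The 3 epithelial markers set beside it, of 14 listed, were less uniform, and they include the only 2 that were called. Sftpc, the surfactant protein C gene of alveolar type 2 cells, stood at 10.40, 11.39 and 10.22 in OVA, against 7.59, 6.98, 9.91 and 8.10 in saline, and was called higher (2.53, SE 0.59, limma adjusted p = 0.0365). Sftpa1 rose by 0.52 (SE 0.11, limma adjusted p = 0.0266). The club cell gene Scgb1a1 stood at 10.93, 10.44 and 10.78 in OVA, against 9.76, 9.91, 11.20 and 9.80 in saline, and was not called. Saline 3 was the highest saline library for Sftpc and Scgb1a1. Cxcl15 lay under the negative control median in every saline library, so its order among them cannot be set beside that of these markers. The 14 epithelial genes averaged 7.45 to 7.54 in OVA libraries and 7.08 to 7.42 in saline libraries. Their differences ran from -0.26 (Ager) to 2.53 (Sftpc), with a median of 0.12. Lamp3 was under the negative control median in every library. The part of epithelial RNA in the Cxcl15 difference was not tested.

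Cxcl15 lies in a run of 7 chemokine genes on chromosome 5 (Cxcl5, Ppbp, Pf4, Cxcl3, Cxcl15, Cxcl1 and Cxcl2), of which it was the member called. Its neighbours that bear the ELR motif and bind CXCR2, the receptor that drives neutrophil migration, were not called. Cxcl2 (MIP-2) stood at 12.42, 12.49 and 12.49 in OVA, against 12.41, 12.30, 12.36 and 12.45 in saline, a difference of 0.09 with a 95% interval of -0.13 to 0.30. Cxcl1 (KC) stood at 8.41, 8.56 and 8.39 in OVA, against 8.32, 8.25, 8.54 and 8.38 in saline. In both genes the groups overlapped. Cxcl3 stood at 10.81, 11 and 10.79 in OVA, against 10.96, 10.58, 11.35 and 11.49 in saline, and its saline libraries spread widely around the OVA values. Its difference of -0.23 (SE 0.20) was not called with all libraries, and was called at -0.55 (limma adjusted p = 0.0317) without saline 1 and 2 together. Cxcl5 (LIX) was under the negative control median in every library, with means of 5.06 in OVA and 5.23 in saline.

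Ppbp and Pf4 encode chemokines that platelets store in their granules. Ppbp stood at 6.34, 6.66 and 6.33 in OVA, against 6.83, 6.86, 7.55 and 7.37 in saline. Every OVA library lay below every saline library, and saline 3 and 4 stood apart from saline 1 and 2. The difference of -0.71 (SE 0.19) just missed the threshold (limma adjusted p = 0.0628). It passed with array weights (0.0179), with dim genes left out (0.0498), without saline replicate 2 (0.0432) and without saline 1 and 2 together (-1.02, 0.00603). Pf4 stood at 5.63, 5.60 and 5.61 in OVA, against 5.40, 5.54, 6.24 and 5.39 in saline, so its spread lay in saline 3. Of 8 measured platelet and megakaryocyte genes 0 were called in either direction by limma, 2 had an unadjusted p under 0.05, and their mean level was 6.64 to 6.72 in OVA libraries and 6.81 to 6.88 in saline libraries. The erythroid genes Hba-a1, a globin, and Alas2, a heme synthesis enzyme, also lay lower in every OVA library, without being called. Hba-a1 stood at 10.13, 11.31 and 11.39 in OVA, against 11.71, 11.55, 12.42 and 12.07 in saline, and Alas2 at 6.63, 7.03 and 7.11 in OVA, against 7.48, 7.18, 8.0 and 7.89 in saline. As with Ppbp, saline 3 and 4 were the highest libraries. The part of platelets or red cells in the Ppbp difference was not tested.

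**Figure D3:**
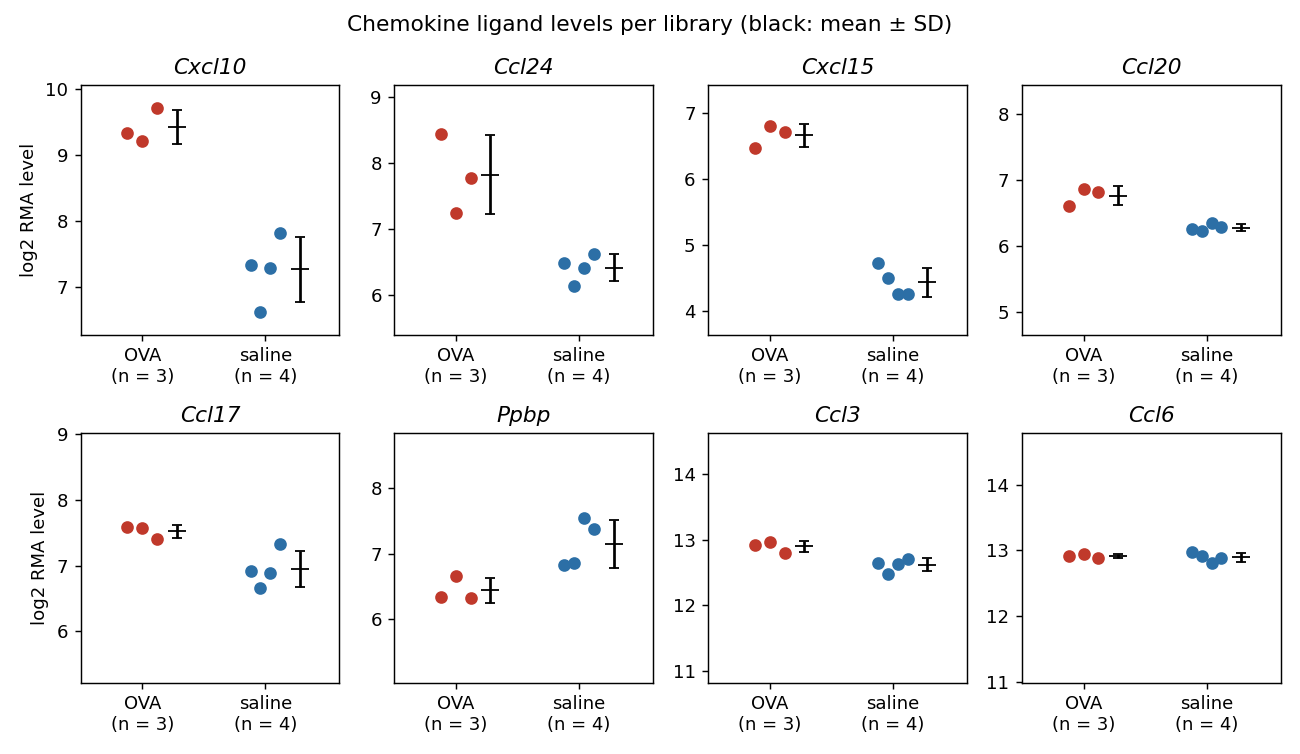
Log2 RMA level of 8 chemokine genes in each library, OVA (red, n = 3) left of saline (blue, n = 4), with the mean ± SD in black and the same span on every axis. Cxcl10, Ccl24, Cxcl15 and Ccl20 were called higher in OVA. Ccl17 and Ppbp had no overlap between groups but were not called, and Ccl3 and Ccl6 stood near 12.9 in OVA libraries.

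Ligands of the MIP-1 family, attractants of monocytes, T cells and granulocytes, were not called. Ccl6, a rodent chemokine that binds CCR1, stood at 12.91, 12.95 and 12.88 in OVA, against 12.97, 12.91, 12.81 and 12.88 in saline. The difference was 0.02, with a 95% interval of -0.19 to 0.23. Ccl3 (MIP-1 alpha) stood at 12.92, 12.97 and 12.80 in OVA, against 12.65, 12.48, 12.63 and 12.71 in saline. The groups did not overlap, but the difference of 0.28 (SE 0.10, limma adjusted p = 0.162) was not called, except with array weights (0.0426). Ccl4 (MIP-1 beta), an attractant of monocytes and T cells, stood at 9.56, 9.49 and 9.39 in OVA, against 8.94, 8.92, 9.46 and 9.52 in saline. Saline 3 and 4 lay among the OVA libraries and saline 1 and 2 below them. Its difference was 0.27 with all libraries (not called), -0.01 without saline 1 and 2 together, and 0.55 without saline 3 and 4 together (limma adjusted p = 0.0154).

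Ccl6, Ccl3, Cxcl2 and Cxcl3 were the 4 chemokine genes above the 95th percentile of the negative control probe sets in all 7 libraries. That percentile was 9.26 to 9.35 in OVA and 9.24 to 9.46 in saline. Ccl4 passed it in all 3 OVA libraries and in 2 of 4 saline libraries. Cxcl10 passed it in 1 OVA library and in 0 saline libraries. The other 32 chemokine genes passed it in none, and 4 of these (Ccl12, Ccl8, Cxcl12 and Cxcl5) were under the negative control median throughout. None of the 4 genes above the percentile throughout was called, and the called genes Ccl24, Ccl20 and Cxcl15 passed it in no library.

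Of the lymphoid and mucosal CC ligands, Ccl20 was called. Ccl20 attracts cells that bear CCR6, such as Th17 cells, B cells and immature dendritic cells. It stood at 6.60, 6.87 and 6.82 in OVA, against 6.25, 6.22, 6.34 and 6.29 in saline. The groups did not overlap, and the saline libraries lay within 0.2 log2 of each other. The difference was 0.49 (SE 0.10, limma adjusted p = 0.0252). It was not called without saline replicate 1 (limma adjusted p = 0.0585), OVA replicate 2 (0.135), OVA replicate 3 (0.119) or saline 1 and 2 together (0.071), nor when all probe sets were fitted (0.0616). The alternatives gave adjusted p values between 0.00484 and 0.135 in limma.

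Ccl28, a mucosal ligand of CCR10, stood at 5.92, 5.97 and 5.71 in OVA, against 6.07, 6.07, 6.04 and 6.02 in saline. All OVA libraries lay below all saline libraries, by 0.05 log2 at the nearest, and the difference of -0.18 was not called. Ccl19 and the Ccl21 genes, ligands of CCR7 that guide dendritic cells and T cells to lymph nodes, differed by -0.20 and -0.13. Ccl25, a ligand of CCR9 in gut and thymus, differed by 0.22, Ccl27a, a skin ligand of CCR10, by -0.09, and Ccl1, a ligand of CCR8, by -0.11. None of these was called.

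The 2 ligands of CCR2, the receptor of inflammatory monocytes, were not called. Ccl2 (MCP-1) averaged 6.23 ± 0.17 in OVA (SD, n = 3) and 6.38 ± 0.09 in saline (SD, n = 4). Ccl12 (MCP-5) averaged 4.76 ± 0.10 in OVA and 5.03 ± 0.16 in saline. Among the 7 remaining ligands, Ccl26 included, 0 were called. Cxcl16, a ligand of CXCR6 that is also found bound to membranes, averaged 6.35 ± 0.23 in OVA and 6.06 ± 0.11 in saline (limma adjusted p = 0.238). Cxcl12, the CXCR4 ligand of stromal cells, averaged 5.58 in OVA and 5.55 in saline. Cxcl13, a B cell attractant, differed by -0.15, Cxcl14 by -0.27 (called lower without saline 3 and 4 together), the lymphocyte product Xcl1 by -0.25 and the CX3CR1 ligand Cx3cl1 by -0.05.

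Among the saline libraries, replicates 1 and 2 lay on the same side of replicates 3 and 4 for 24 of the 38 genes, above them for 18 and below them for 6. The 6 were Ccl4, Ccl8, Ccl20, Cxcl1, Cxcl3 and Ppbp. The 18 include Ccl21a, Ccl21b and Ccl21c, in effect 1 measurement. The share of all genes split in this way was not counted, so the split cannot be read as particular to chemokine genes. The median SD of the 38 genes was 0.14 over OVA libraries and 0.16 over saline libraries. The highest SD was 0.60 in OVA, for Ccl24, and 0.50 in saline, for Cxcl10.

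**Figure D4:**
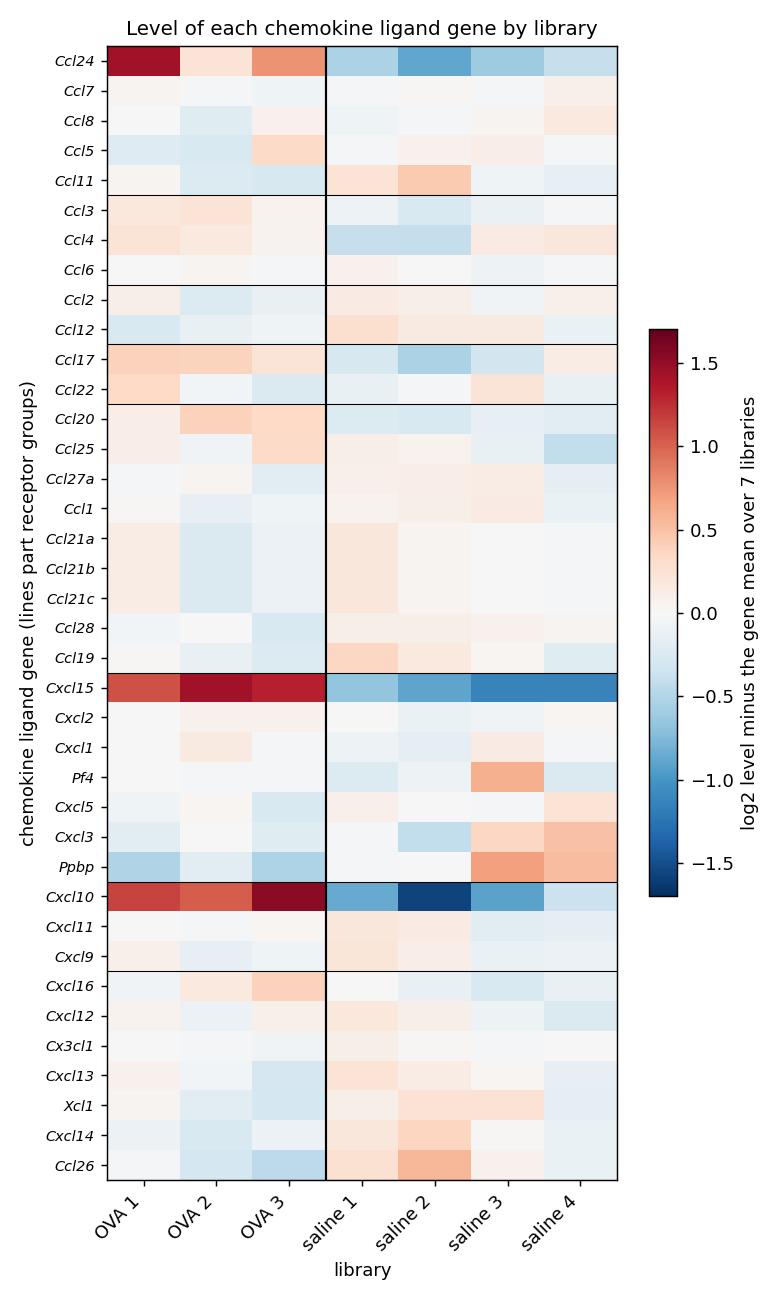
Log2 level of each chemokine gene in each library, as the deviation from that gene's mean over the 7 libraries, with OVA libraries left of the vertical line. Horizontal lines part the groups, in the order of the plot of differences. Cxcl10, Cxcl15, Ccl24 and Ccl20 had no overlap between groups, OVA being higher, and Ppbp, Cxcl3 and Pf4 lay above their means in saline 3.

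Along the chromosomes, called genes lay beside genes that were not called, and joint movement of a cluster was not tested. Of the 6 neighbours Ccl2, Ccl7, Ccl11, Ccl12, Ccl8 and Ccl1 on chromosome 11, 0 were called, with differences from -0.27 to -0.03 (limma; 1 had an unadjusted p under 0.05). Of Ccl5, Ccl6, Ccl3 and Ccl4, also on chromosome 11, 0 were called, with differences from -0.09 to 0.28 (1 at an unadjusted p under 0.05). Of Ccl27a, Ccl21b, Ccl19 and Ccl21a on chromosome 4, none was called, and all 4 differences were negative (-0.20 to -0.09), as were all 6 of the first group on chromosome 11. Ccl21a and Ccl21b are in effect 1 measurement. Negative differences were common, with 23 among the 38 chemokine genes and a median of -0.07 over all genes. On chromosome 8, Ccl22, Cx3cl1 and Ccl17 differed by -0.05 to 0.58, and none was called (limma; Ccl17 had an unadjusted p under 0.05). In each of the 3 groups on chromosome 5 that held a called gene, that gene was the member called: Cxcl15 of 7, Cxcl10 of 3, and Ccl24 of 2.

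Among the chemokine receptor genes, Ccrl2, an atypical receptor that presents the attractant chemerin, stood at 12.63, 12.65 and 12.69 in OVA, against 11.87, 11.80, 11.90 and 12.14 in saline, and rose by 0.73 (SE 0.11, limma adjusted p = 0.0048). Its groups did not overlap. The receptors of Cxcl10, Ccl20 and Ccl24 were not called: Cxcr3, for Cxcl10, differed by -0.16, Ccr6, for Ccl20, by -0.27, and Ccr3, for Ccl24, by -0.14. Ccr6 lay lower in every OVA library than in every saline library, and passed the negative control median in 1 library. No receptor is given for Cxcl15, and Cxcr2 was not measured. Ccr1, for Ccl3 and Ccl6, stood at 10.37, 10.56 and 10.39 in OVA, against 9.40, 9.60, 10.23 and 10.19 in saline (limma adjusted p = 0.143). Cxcr4, the receptor of Cxcl12, stood at 12.44, 12.30 and 12.28 in OVA, against 12.01, 11.92, 11.96 and 12.03 in saline (0.36, limma adjusted p = 0.0608).

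Of 24 genes that carry the signal of chemokine receptors, 1 was called higher and 1 lower. Of 11 measured genes that cleave or hold chemokines outside the cell, 1 was called higher, the macrophage elastase Mmp12, and 1 lower, the gelatinase Mmp9.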

How the data were processed

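Sorted lung eosinophils of BALB/c mice (3 OVA and 4 saline libraries) were hybridised to mouse gene arrays. The deposited log2 levels were made by the authors with RMA, per the submitters' processing notes, which subtracts background and brings arrays to a common distribution. Its version: not given in the sources used here. Symbols, accessions and control classes came from the authors' annotated table, whose columns of annotation (other than values) were used. Its 7 value columns match no sample label and were not used.

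Symbols were updated through RefSeq (GRCm38.p6), by accession for 16891 probe sets. Where a gene had more than 1 probe set (861 genes), that of highest mean was kept, leaving 18220 genes. Limma (version 3.58.1, R 4.3.3) compared the groups with lmFit and eBayes, 2-sided, Benjamini-Hochberg adjusted over all genes. On simulated data of 18220 genes, the OVA against saline fit called 22.4%, 79.1% and 100% of genes changed by 0.5, 1 and 2 log2. The number of arrays limits the precision.

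The members, lists and tests were chosen with earlier results of these data known. Genes described library by library were members called, members without overlap, members with a mean of at least 8 in a group, and members grouped with the CCR3 or CXCR3 ligands. Pf4 was added as the partner of Ppbp after its values were seen. Alternatives changed the normalization, array weights, features, filter on dim genes, libraries and replicate block. Some measured genes are not reported here.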

Additional observations from a re-analysis of the deposited data

Results flagged for a closer look

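Among the 38 chemokine genes tested for a library far from the others in the saline group of 4, only Ccl27a had one. Its level was 6.86 in saline 4, against 7.11 to 7.15 in the other saline libraries, while OVA libraries stood at 7.00, 7.07 and 6.84. Chance flags about 1 in 20 groups of this kind. Groups of 3 were not tested, so the OVA libraries were not examined in this way.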

How the results depend on the processing

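Cxcl10 was called higher in all 16 alternatives, Cxcl15 in the 15 in which it was tested, Ccl24 in 15 of 16 and Ccl20 in 11 of 16. Leaving out 1 library in turn gave 2 to 5 chemokine genes called higher and 0 to 1 lower, and over all genes 367 to 1218 higher and 68 to 267 lower. The lowest chemokine count, 2, came without OVA replicate 3. Chemokine genes called lower numbered 1 with array weights and 1 with dim genes left out (both Ppbp), 2 without saline 1 and 2 together, and 3 without saline 3 and 4 together. Over all genes, 1652 were called higher and 679 lower with array weights, and 2190 higher and 989 lower without saline 3 and 4 together. Genes called lower numbered 513 after quantile normalization, 476 after cyclic loess, 123 after median centring, 101 with all probe sets fitted and 406 without saline 1 and 2 together. The causes were not tested.

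Differences of the other sign were seen only in genes that were not called in those settings. After quantile normalization they were 0.0216 (Ccl7), 0.0529 (Ccl8), -0.118 (Cxcl1) and 0.000179 (Cxcl9), and after cyclic loess 0.0506 (Ccl7), 0.0515 (Ccl8), -0.0692 (Cxcl1) and 0.0381 (Cxcl9). Without saline 1 and 2 together they were -0.01 (Ccl4), -0.0067 (Cxcl1) and 0.065 (Cxcl9), and without saline 3 and 4 together -0.0267 (Ccl6), 0.005 (Ccl8), -0.165 (Cxcl11) and 0.0967 (Cxcl3). Leaving out 1 library in turn gave -0.28 to 0.0175 for Ccl5, -0.13 to 0.0075 for Ccl8, -0.0067 to 0.0467 for Ccl6 and -0.06 to 0.07 for Cxcl11.

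Replicates of the same number did not all deviate together (correlations of 0.272, -0.137 and 0.241), so they were taken to share only a number. With the replicate block over replicates 1 to 3, 5 chemokine genes were called higher, Ccl17 being added, and Cxcl11 differed by -0.0433. At 32 of the 38 genes no library passed the 95th percentile of the negative controls, which limits what their differences can show.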
